A study of Mus musculus with 2 samples.

Results

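The genes described here encode chemokines, small secreted or membrane-bound proteins that guide migrating cells. They were taken by symbol: every gene row whose symbol starts with Ccl or Cxcl followed by a digit, plus Cx3cl1 and Xcl1, with Ccl6, Ccl9 and Ccl20 left out. That gave 45 of the 55487 gene rows of the series, under 39 symbols. All 45 identifiers were found in GENCODE mouse release M21 on GRCm38, the same assembly as mm10, 43 of them with the same version. Of the 45 rows, 33 had over 20 UMIs in the annotated cells, 7 had 1 to 20 and 5 had none. UMIs are the molecular barcodes by which captured transcripts were counted once each.

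Thymic epithelial cells of the medulla (mTEC), of the subset called mTEClo, came from C57BL/6 mice and were sorted as negative for Pdpn and CD104 after depletion of CD45-bearing cells. The 3 control samples, called Hnf4ctrl, carried the genotype Foxn1(cre/+) Hnf4a(fl/+) Hnf4g(+/-), so they too lacked 1 working copy of each gene where the Cre had acted. The 4 mutant samples, called Hnf4dTEC, carried Foxn1(cre/+) Hnf4a(fl/fl) Hnf4g(-/-). Foxn1-cre acts in thymic epithelium, whereas the labels give the Hnf4g alleles as constitutive. Hnf4a and Hnf4g encode nuclear receptors of gut and liver epithelium. Age and sex are not in the labels. Nor is it stated there that the samples came from different mice, and p-values therefore measure the spread between these samples, which may be technical. All samples were marked with hash tags and loaded together, and the 9185 annotated cells (3295 control, 5890 mutant) fell into 15 classes named by the authors.

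Chemokines bind seven-transmembrane receptors on migrating cells. In the thymus, ligands of Ccr7 and Ccr9 draw progenitors and developing thymocytes into and through the organ, and medullary ligands of Ccr7 are needed for positively selected cells to enter the medulla. Mimetic mTEC resemble cell types found outside the thymus. Whether the members they express are those of the tissue they mimic was not tested here. Members are known either as homeostatic, made at steady state, or as inflammatory, induced through NF-kappaB or interferon signals.

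Promoter sequences are shown for the neutrophil-attracting genes Cxcl1, Cxcl2 and Cxcl3, which lie in 1 cluster on chromosome 5 and share a motif, for Cxcl10, and for Ccl25, on which a result below turns. They come from RefSeq on GRCm38.p6, read on the strand of the gene, which matched 25 of the 39 symbols with 31 promoters. Each window runs from 250 bases before a start to 50 after it, and only bases before the start are printed. Capitals mark an NF-kappaB (kappaB) motif on either strand, searched as GGGA, any 2 bases and TTCC. In Cxcl1, Cxcl2 and Cxcl3 the match on 1 strand overlaps the match on the other by all but 1 base, and the sites lie 71, 97 and 73 bases before the start.
Cxcl1, chr5:90891154-90891204, plus strand: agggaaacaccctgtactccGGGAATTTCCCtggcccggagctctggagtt
Cxcl2, chr5:90903782-90903832, plus strand: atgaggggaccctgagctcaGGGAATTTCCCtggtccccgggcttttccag
Cxcl3, chr5:90786008-90786058, plus strand: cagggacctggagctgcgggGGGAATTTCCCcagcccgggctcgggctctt
Cxcl10, chr5:92349019-92349068, minus strand: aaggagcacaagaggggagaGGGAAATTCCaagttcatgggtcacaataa

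Cxcl10 also carried an interferon-stimulated response element, searched as GAAA, any 2 bases and GAAA and in capitals here, 213 bases before its start.
Cxcl10, chr5:92349073-92349122, minus strand: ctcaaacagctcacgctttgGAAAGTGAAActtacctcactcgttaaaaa
The kappaB letters were in 5 of the 31 member promoters (Cxcl1, Cxcl2, Cxcl3, Cxcl10 and Ccl1) and in 1.47% of all 32851 promoters of the same length. The matches of the neighbours Cxcl1, Cxcl2 and Cxcl3 are not taken as independent. The response element was in 3 of the 31 (Ccl19, Cxcl10 and Cxcl14) and in 3.44% of all promoters. The letters CAAAGTCCA, an HNF4 motif, were in none of the 31 member promoters and in 0.475% of all. For Ccl25, the 80 bases before each of its 2 RefSeq starts follow, with the letters TATAAA in capitals where present (13.6% of all promoters hold them on a strand). The 3′ counts do not show which start was used.
Ccl25, chr8:4325130-4325209, plus strand: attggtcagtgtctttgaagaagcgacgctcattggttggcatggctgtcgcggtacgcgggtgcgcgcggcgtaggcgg
Ccl25, chr8:4349508-4349587, plus strand: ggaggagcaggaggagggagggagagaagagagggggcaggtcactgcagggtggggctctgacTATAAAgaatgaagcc

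Samples held between 10127838 and 25821970 UMIs, with medians of 11528 to 15053 per cell. Levels are CPM, a gene's UMIs per 1000000 UMIs of all genes in a sample, or in a class of a sample. A transcript is counted once at its 3′ end, so CPM is not divided by length. Samples differed in their mix of classes: Aire-expressing cells made up 3.50%, 7.43% and 13.1% of control samples 1, 2 and 3 and 5.87%, 6.46%, 8.47% and 12.4% of mutant samples 1 to 4. Over all cells Hnf4g was at 116 to 122 CPM in controls and 78.1 to 88.4 CPM in mutants (log2 fold change -0.50 ± 0.06 SE, edgeR adjusted p = 0.0384). Hnf4a was at 1.68 to 3.18 and 0.673 to 2.27 CPM, with overlapping groups (adjusted p = 0.874). The labels do not say which part of each gene was deleted, and 3′ UMIs from outside it would not check the deletion. Of 31 class markers from 8 lists, 30 were highest in their own class; the exception was Scgb1a1, listed for Secretory and highest in Keratinocyte cells.

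Over all cells the family was made up of a few abundant members and a long tail. Ccl21a, Cxcl10, Ccl27a, Cxcl9 and Ccl19 together held 67.7% of the 214658 chemokine UMIs, and Ccl21a alone 28.4%. The sum of all members was between 1336 and 1905 CPM per sample. It was lowest in mutant sample 2 and highest in control 3, and the genotypes overlapped.

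**Figure D1:**
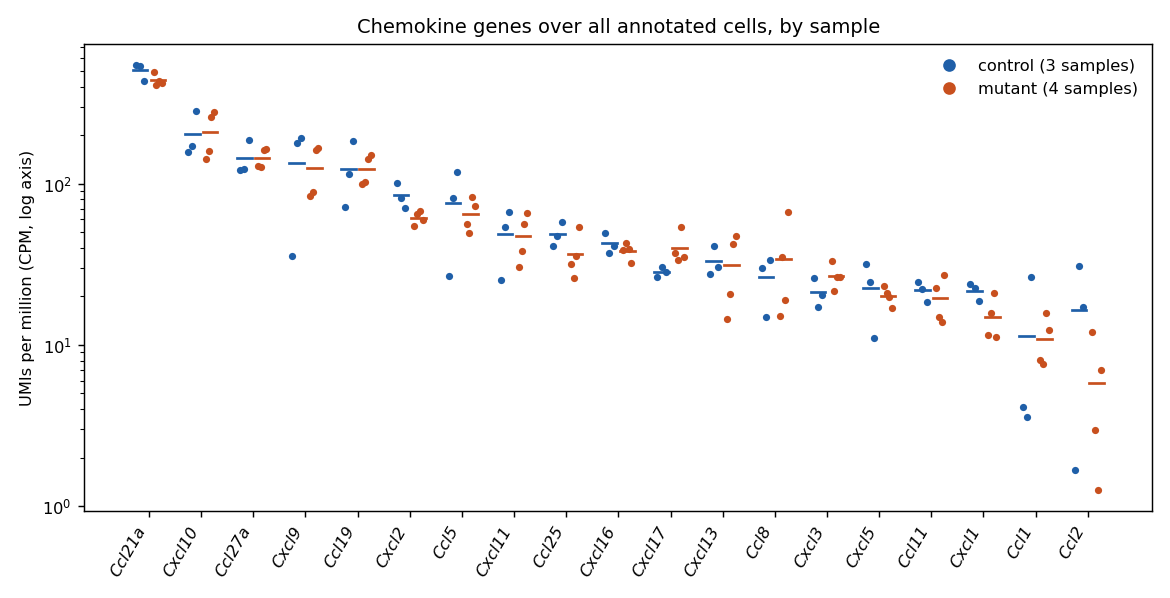
Level of the 19 chemokine genes with a mean of at least 10 CPM over all annotated cells (CPM, log axis). Each point is 1 sample (3 control, 4 mutant) and each line the mean of its genotype; Ccl21a stands above all others at 410.4 to 543 CPM, and most other genes overlap their neighbours in the order.

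Of the 18 neighbouring pairs in the order of these 19 genes, 17 had overlapping ranges over the 7 samples. The exception was the first, Ccl21a above Cxcl10. In the genotype comparison 30 of the 45 members passed the filter on low counts and 0 passed the adjusted threshold of 0.05 in edgeR, against 0.184% of all 21187 genes tested. At an unadjusted p under 0.05 there were 4 of 30 (13.3%, against 6.65% of all genes). DESeq2 called 1 member, Ccl7, among 233 genes in all. The median log2 fold change of the 30 was -0.13, with 20 below 0, and that of all genes was 0.00. Among the 19 named genes the groups did not overlap for Cxcl2 and Cxcl17, 2 of 19, where 7.85% of all genes tested had groups that did not overlap.

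The ligands of Ccr7, the receptor that brings thymocytes to the medulla, came first. Ccl21a (chromosome 4, 42772860 to 42773993, minus strand) was at 543, 539 and 435 CPM in control samples 1 to 3 and at 493, 410.4, 433 and 423 CPM in mutant samples 1 to 4. The groups overlapped (log2 fold change -0.19 ± 0.10, edgeR adjusted p = 0.851). Within Immature cells, a class whose fixed markers include Ccl21a, it reached 11446, 11642 and 10242 CPM in controls and 11518, 10394, 12112 and 9713 CPM in mutants, a genotype log2 fold change of -0.06 ± 0.15. Immature cells held 56.9% of its UMIs though they were 3.09% to 4.73% of the cells of a sample. Transitional cells came next, at 1344 ± 478 CPM (SD, n = 3 control samples), and Tuft cells were lowest, at 24.0 CPM. Ranges of the first and second class did not overlap.

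Ccl21a has near-identical copies, so its identity among them is uncertain. Ccl21d had 550 UMIs and was also highest in Immature cells, at 89.6 ± 18.9 CPM in controls. A further Ccl21a row on the scaffold JH584294.1 had 5 UMIs, Ccl21b had 13 and 1 on 2 of its 3 rows and 0 on the other, and Ccl21c had 0. A count of 0 over all 133319622 UMIs allows up to 0.0225 CPM, by counting error only.

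Ccl19, the other ligand of Ccr7, had another distribution. Over all cells it was at 71.3, 115 and 184 CPM in controls and at 100, 102, 142 and 151 CPM in mutants. Its order followed that of the share of Aire-expressing cells in the samples of each genotype; the part of that share in the level was not tested. Aire-expressing cells carried 450.3, 534 and 578 CPM in controls and 457, 480.3, 678 and 476 CPM in mutants, and Aire-adjacent cells 382 CPM on average in controls, with overlapping ranges. Tuft cells were lowest, at 3.57 CPM. In Immature cells, where both ligands were present, Ccl19 was at 241, 553 and 325 CPM in controls and at 230.3, 169.8, 209 and 394 CPM in mutants, which overlapped (log2 fold change -0.60 ± 0.27, unadjusted p = 0.0404, adjusted p = 0.999). All 354 Immature cells had a Ccl21a UMI and 242 of them a Ccl19 UMI.

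**Figure D2:**
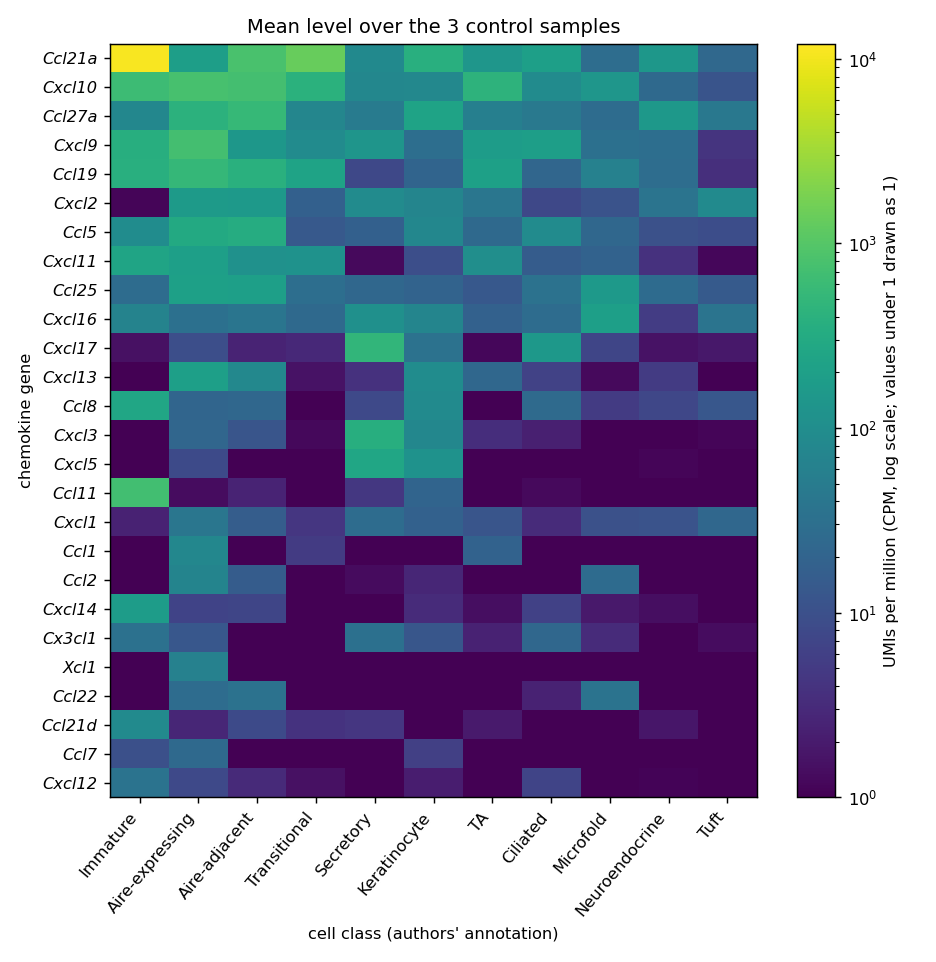
Mean level over the 3 control samples (CPM, log colour scale) of the chemokine genes that reached 20 CPM in a class, for the 11 classes with at least 10 cells in each control sample. Rows are in the order of the level over all cells; Ccl21a, Ccl11 and Cxcl14 are brightest in Immature cells, Cxcl17, Cxcl3 and Cxcl5 in Secretory cells, and the Tuft column is dark for most genes.

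The classes therefore differed in which members they carried, which is given as a description with no test, since the authors made the classes from the same cells' expression. The summed level of all members in controls was highest in Immature cells, at 14273 ± 727 CPM (SD, n = 3), followed by Aire-expressing cells at 4162 ± 383 and Aire-adjacent cells at 3672 ± 113. It was lowest in Tuft cells, at 286 ± 37.5 CPM. Among classes with at least 10 cells in each control, 17 members reached a control mean of 100 CPM. By mean CPM 6 were highest in Aire-expressing, 5 in Immature, 3 in Secretory, 2 in Aire-adjacent and 1 in Microfold cells. Entero-hepato, Ionocyte, Klk-rich and Muscle cells were too few to be ranked.

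Ccl25, the ligand of Ccr9 on developing thymocytes and gut-homing T cells, passed the genotype test in Microfold cells, a call that rests on few cells and on single samples. Over all cells it was at 40.8, 47.6 and 57.5 CPM in controls and at 31.7, 26.0, 35.8 and 54.1 CPM in mutants, with overlapping groups (log2 fold change -0.40 ± 0.24, edgeR adjusted p = 0.898). By mean CPM in controls Aire-expressing cells were the highest class, at 337, 99.3 and 181 CPM in controls and 156, 86.2, 130.2 and 223 CPM in mutants. Aire-adjacent cells were close to them, at 203 ± 155 CPM in controls, and Microfold cells were at 158 ± 118 CPM. The ranges of all 3 classes overlapped. By the share of thinned cells with a UMI Microfold cells were highest, at 31.0% against 19.7% of Aire-expressing cells. Neither Aire-expressing nor Aire-adjacent cells passed the genotype test.

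In Microfold cells, which mimic the antigen-sampling cells of gut epithelium, Ccl25 was at 67.6, 114 and 292 CPM in control samples 1 to 3. It was at 10.8, 21.0 and 28.7 CPM in mutant samples 1 to 3. Every control was above every mutant. The log2 fold change was -3.05 ± 0.61 (SE), with an adjusted p of 0.0278 in edgeR. It was 1 of 6 members tested there, and Microfold was the class with the most calls, at 3.03% of 4656 genes. Mutant sample 4 had 8 Microfold cells, under the minimum of 10, and was not used; its level was 24.2 CPM, and with it in the fit the fold change was -3.02 ± 0.55 (adjusted p = 0.0119, setting added after the data were seen).

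The counts behind this are small. Controls held 18, 34 and 152 Ccl25 UMIs in 18, 25 and 33 Microfold cells, of which 3, 7 and 17 had at least 1. Mutants held 3, 6 and 9 UMIs in 20, 22 and 26 cells, of which 3, 2 and 3 had at least 1. Control 3 held most of them, and without it the log2 fold change was -2.15 ± 0.46 (adjusted p = 0.0514). Without mutant sample 1, 2 or 3 the adjusted p was 0.126, 0.0777 and 0.0645, so the call was lost each time while the fold change stayed between -3.40 and -2.74. Without the cell with most Ccl25 UMIs in each sample, a setting added later, 2, 13 and 126 UMIs were left in controls and 2, 1 and 2 in mutants (-4.18 ± 1.16, adjusted p = 0.0873). The mutant 3 cell with 7 of that sample's 9 UMIs had 40841 UMIs in all and a second hash tag of 28.7%.

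After each cell was thinned to 5000 UMIs, 31.0% ± 14 of control and 3.42% ± 2.96 of mutant Microfold cells had a Ccl25 UMI (SD, n = 3 and 3; exact permutation test, two-sided, p = 0.100, the smallest that 3 against 3 allows). Before thinning the pooled shares were 35.5% of 76 and 13.2% of 76 cells, the latter with mutant sample 4 included. Tuft cells gave 15.7% in controls and 13.8% in mutants, at median depths of 12031 and 12316 UMIs against 13939.5 and 11416 in Microfold cells. Over the samples used, the mutant share was 11.9% ± 2.97 (SD, n = 3) before thinning. The mutant share in Microfold cells was thus no higher than in Tuft cells and is not read as expression, though the pooled mutant level was 20.8 CPM in Microfold and 12.6 CPM in Tuft cells. Whether Tuft cells make Ccl25 was not tested.

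Gut and liver marker genes moved with Ccl25 in this class. The Entero-hepato list (Apoa1, Apoa4, Apoc3, Vil1 and Fabp1) summed to 1734 to 1869 CPM in control and to 50.3 to 308 CPM in mutant Microfold cells, with none of the 5 genes at 0. The list of Microfold markers (Gp2, Spib, Sox8 and Tnfaip2) itself summed to 5199 to 5805 and 2079 to 3388 CPM. The thymic epithelium list summed to 2631 to 2966 and 1605 to 2539 CPM and the cortical list to 123 to 195 and 68.2 to 99.0 CPM, also without overlap, while the myeloid list overlapped (443 to 1751 and 346 to 741 CPM). Of the 27 control Microfold cells with Ccl25, 17 had Vil1, 18 had Apoa4 and 10 had Apoc3. Of the 49 without it, 13, 16 and 7 did. Microfold markers were also found more often in the cells with Ccl25, with Sox8 in 88.9% against 69.4%, Gp2 in 70.4% against 59.2%, Tnfaip2 in 27 of 27 against 46 of 49 cells and Spib in 96.3% against 91.8%. The cells with Ccl25 were deeper, at a median of 16178 UMIs against 11006. The part of these genes, and of depth, in the fall of Ccl25 was not tested.

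**Figure D3:**
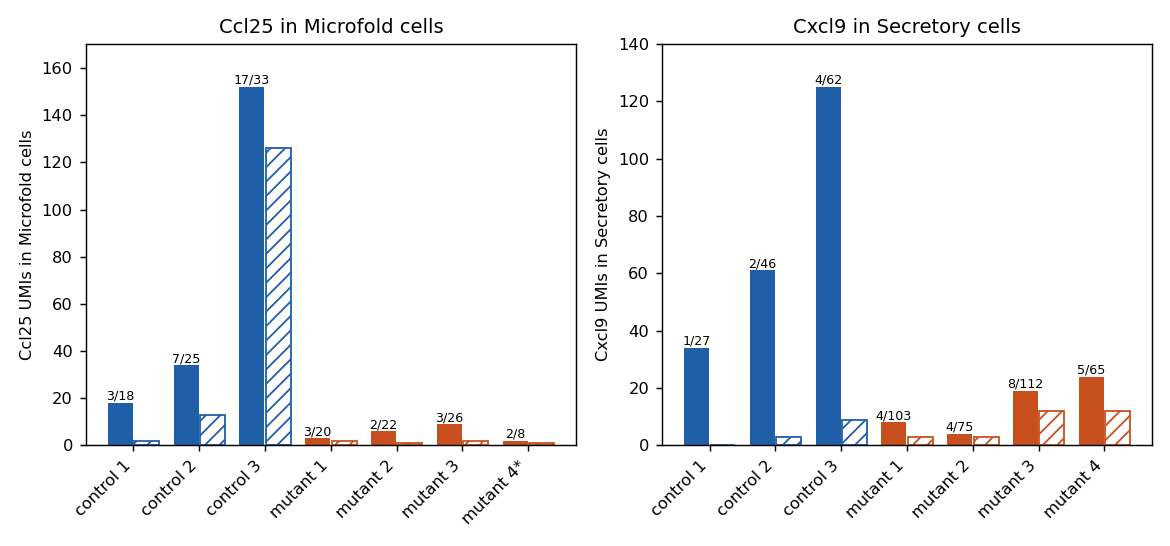
UMIs of Ccl25 in Microfold cells (left) and of Cxcl9 in Secretory cells (right) per sample, for all cells of the class (filled) and without the 1 cell with most UMIs of that gene (hatched); blue is control, orange mutant, and the labels give cells with a UMI over cells. The hatched bars of Cxcl9 are at 0 to 12 UMIs in both genotypes, while those of Ccl25 are at 2 to 126 in controls and 1 to 2 in mutants (the starred sample had under 10 cells).

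Compared with all other cells of the same sample, Microfold cells had more Ccl25 in each control (log2 differences of 0.74, 1.29 and 2.45) and less in each mutant used (-1.48, -0.30 and -0.31). The mean difference between genotypes was -2.19, and the exact permutation test gave p = 0.100, the smallest it allows (adjusted over the 2 pairs tested this way, 0.100). With this few samples the test could not pass the threshold, so it does not say whether the difference is particular to Microfold cells. Elsewhere Transitional cells had 34.8, 24.2 and 29.9 CPM in controls and 12.5, 6.02, 14.8 and 11.2 CPM in mutants, and Secretory cells 19.7, 26.4 and 24.0 against 14.5, 7.82, 15.5 and 12.6 CPM. The groups did not overlap in either class, and neither passed the test (log2 fold changes of -1.34 ± 0.29 and -0.89 ± 0.31, adjusted p = 0.266 and 0.659). In Entero-hepato cells, pooled over 82 control cells, Ccl25 was at 175 CPM; the mutants held 3 such cells and were not compared.

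Cxcl9, Cxcl10 and Cxcl11 are the ligands of Cxcr3 on activated T cells, are induced by interferon and lie side by side on chromosome 5 between 92321347 and 92365485. Over all cells Cxcl10 was at 157, 172 and 282 CPM in controls and 143, 159, 258 and 280.1 CPM in mutants. Cxcl9 was at 35.8, 178 and 191 CPM in controls and 84.0, 88.8, 162 and 166 CPM in mutants. Cxcl11 was at 25.3, 54.0 and 66.4 CPM and at 30.4, 38.4, 56.1 and 65.4 CPM. The annotation calls Cxcl11 a polymorphic pseudogene, so its UMIs are not read as a working ligand in these mice. All 3 overlapped between genotypes, with log2 fold changes between -0.11 and 0.05, and within each genotype all 3 were lowest in sample 1, which had the smallest share of Aire-expressing cells. The part of that share in their levels was not tested.

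In Aire-expressing cells Cxcl10 was at 1099, 600.3 and 635 CPM in controls and 614, 737, 1288 and 936 CPM in mutants. Cxcl9 was at 374, 949 and 865 CPM in controls and 527, 618, 1091 and 662 CPM in mutants. Both were lowest in Tuft cells, at 11.5 and 4.05 CPM. Neither differed by genotype in this class (0.27 ± 0.29 and 0.02 ± 0.35). The 3 genes were often in the same cell there: 79.2% of 614 cells with Cxcl10 also had Cxcl11, against 44.4% of the cells without Cxcl10, at median depths of 18748 and 15352 UMIs. These are counts of cells with no test. Cxcl11 had its highest control mean in Immature cells, at 238 ± 236 CPM, with a range that overlapped that of Aire-expressing cells (204 CPM). They were also carried by TA cells, the class highest for the cycling markers, where Cxcl10 was at 437 ± 104 CPM in controls. By the share of thinned cells with a Cxcl10 UMI TA cells led, at 77.6% against 64.6% of Aire-expressing cells.

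In Secretory cells, which mimic mucus-making airway epithelium, the Cxcl9 UMIs of the controls came almost whole from 1 cell per sample. Controls held 34, 61 and 125 UMIs in 27, 46 and 62 cells, and a single cell held 34, 58 and 116 of them. Mutants held 8, 4, 19 and 24 UMIs in 103, 75, 112 and 65 cells, with at most 12 in 1 cell. As levels these were 134, 107 and 158 CPM against 6.46, 4.47, 14.1 and 27.4 CPM, and the log2 fold change of -3.39 ± 0.38 passed the test (edgeR adjusted p = 0.0203; 0.0314% of 9556 genes were called in this class). It was 1 of 14 members tested there.

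Without the highest cell of each sample, a setting added after the data were seen, 0, 3 and 9 UMIs were left in controls and 3, 3, 12 and 12 in mutants. The log2 fold change was then -0.09 ± 0.72 (adjusted p = 1.000). The share of cells with a Cxcl9 UMI was 4.83% ± 1.44 in controls and 6.01% ± 1.74 in mutants (SD, n = 3 and 4; exact permutation p = 0.343, two-sided), and 5.61% and 3.62% after thinning (p = 0.229). Tuft cells had 3.85% and 3.14% by the same measure, unthinned. Without control 3 or mutant 3 the call was lost as well, with adjusted p of 0.0855 and 0.0982. Relative to the other cells of each sample the genotypes differed by -3.76 (exact permutation p = 0.0571, the smallest two-sided value for 3 against 4; adjusted 0.100).

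The 3 control cells with 34, 58 and 116 Cxcl9 UMIs had 11629, 15693 and 26799 UMIs in all, against class medians of 9883, 11176 and 12053, and second hash tags of 1.01% to 4.16%. In this class Secretory markers summed to 2442 to 2878 CPM in controls and 4357 to 6499.7 CPM in mutants, and endothelial markers to 0 to 3.79 and 5.65 to 17.1 CPM, with Cdh5, Kdr and Emcn at 0. Neither overlapped. Myeloid markers summed to 103 to 185 and 52.5 to 104 CPM, which overlapped, with Tyrobp at 0. The part of these in the result was not tested. Cxcl10 in Secretory cells was at 43.4, 106 and 84.6 CPM in controls and 11.3, 32.4, 6.66 and 14.9 CPM in mutants, with no overlap. It missed the threshold (-2.42 ± 0.41, edgeR adjusted p = 0.0999) but passed it in DESeq2 (0.000618).

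In Neuroendocrine cells Cxcl10 was at 9.98, 45.6 and 18.4 CPM in controls and at 71.0, 60.1, 64.4 and 71.7 CPM in mutants, and the groups did not overlap (1.41 ± 0.31, edgeR adjusted p = 0.113, DESeq2 0.00262). Without control 2, the highest control, edgeR gave 2.10 ± 0.22 and an adjusted p of 0.00863. Of the 7 edgeR fits that each left out 1 sample, 6 did not pass. Over the 12 alternative settings the log2 fold change was between 1.13 and 2.10. In that class 0 of 12 members passed in edgeR, where 0.389% of all genes did.

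**Figure D4:**
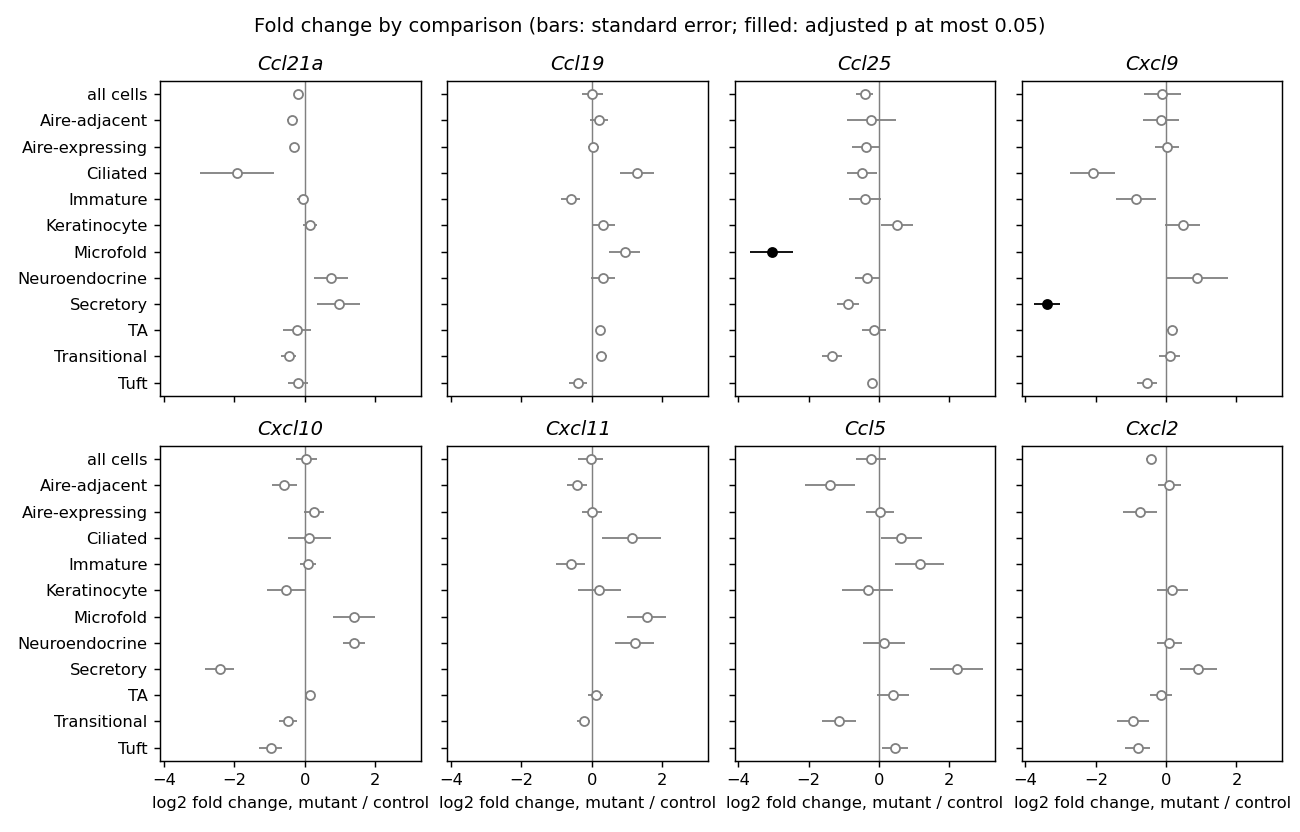
Log2 fold change of mutant over control (edgeR; bars are standard errors) for 8 chemokine genes over all cells and in each class where the gene was tested. Filled points passed the adjusted threshold of 0.05: Ccl25 in Microfold cells at -3.05 and Cxcl9 in Secretory cells at -3.39; open points did not.

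The other classes gave no calls in edgeR. Members tested and called numbered 0 of 13 in Aire-adjacent, 0 of 24 in Aire-expressing, 0 of 12 in Ciliated, 0 of 14 in Immature, 0 of 12 in TA and 0 of 10 in Transitional cells, where 0% of all genes passed. They were 0 of 19 in Keratinocyte cells, where 0.0799% of genes passed, and 0 of 15 in Tuft cells, where 0.0881% did. Within the 11 classes 151 pairs of a member and a class were tested, of which 22 had an unadjusted p under 0.05 in edgeR. Among all genes tested the share with such a p was lowest in Ciliated cells, at 2.65%, and highest in Microfold cells, at 16.3%. The pairs share genes and samples and are not independent, so 22 of 151 is not read as a result about the members. DESeq2 called 4 pairs, the same 2 and Cxcl10 in Secretory and Neuroendocrine cells. Over all genes it called 159 in Microfold, 28 in Secretory and 82 in Neuroendocrine cells. For some pairs, here and below, groups within a class are said not to overlap. The share of all genes without overlap was counted only over all cells (7.85%). Within classes the lack of overlap is therefore a description of the values and not a result about the members.

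Cxcl1, Cxcl2, Cxcl3 and Cxcl5 bind Cxcr2 and attract neutrophils. Cxcl2 was at 101, 81.6 and 71.0 CPM over all cells in controls and at 54.4, 65.3, 67.3 and 59.5 CPM in mutants. Every control was above every mutant, but the log2 fold change of -0.44 ± 0.13 missed the threshold (edgeR adjusted p = 0.432). Cxcl1 was at 23.9, 22.5 and 18.7 CPM and at 11.5, 15.8, 20.9 and 11.2 CPM, with overlap. Cxcl3 was at 26.0, 17.1 and 20.4 CPM and at 33.0, 21.7, 26.3 and 26.2 CPM, also with overlap.

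Cxcl5 was at 31.9, 24.5 and 11.1 CPM in controls and at 23.2, 20.9, 19.8 and 17 CPM in mutants. Of the 3 genes that share the kappaB letters shown above, Cxcl1 and Cxcl2 had their highest control mean in Aire-expressing cells. It was 40.1 ± 23.5 and 167 ± 34.3 CPM, among classes with at least 10 cells in each control. Pooled control Entero-hepato cells were at 61.9 and 294 CPM, against pooled levels of 46.4 and 150.1 CPM in Aire-expressing cells. For Cxcl2 the range overlapped that of Aire-adjacent cells (155 CPM), which led by the share of thinned cells with a UMI (23.7% against 14.9%). Cxcl3 and Cxcl5 were highest in Secretory cells, at 742, 206 and 119 CPM and at 296, 308 and 164 CPM in controls, and Secretory cells held 46.6% and 54.2% of their UMIs. In mutant Secretory cells they were at 303, 151, 299 and 258 CPM and at 287, 137, 192 and 355 CPM. Both overlapped between genotypes. Cxcl2 was at 88.1 ± 42.2 CPM in control Tuft cells, where Cxcl5 had UMIs in 20 of 4118 cells.

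Within a class the neighbours Cxcl1 and Cxcl2 were found in the same cells. Of 369 Tuft cells with Cxcl1, 43.4% had Cxcl2, against 7.10% of the cells without Cxcl1 (median depths 13412 and 12030.0 UMIs). In Secretory cells 64.0% of the 114 cells with Cxcl5 had Cxcl3, against 24.7% of the others (11522 and 11052 UMIs). Cxcl3 and Cxcl1 shared fewer cells, with Cxcl1 in 16.9% of Secretory cells with Cxcl3 and in 5.56% of those without it. Cells are not replicates, and these shares carry no test.

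Cxcl17, a mucosal chemokine, was at 26.5, 30.5 and 28.5 CPM over all cells in controls and at 37.4, 33.8, 53.9 and 34.9 CPM in mutants. Every mutant was above every control (0.50 ± 0.17, edgeR adjusted p = 0.570). Among classes with at least 10 cells in each control, Secretory cells were highest. They were at 675, 378 and 396 CPM in controls and at 526, 467, 682 and 511 CPM in mutants, which overlapped (0.19 ± 0.22). Ionocyte cells, with 10 control and 18 mutant cells in all, had pooled levels of 706 and 456 CPM. Pooled Secretory cells were at 434 CPM in controls and 559 CPM in mutants. Pooled over samples, Secretory cells were 135 of 3295 control and 355 of 5890 mutant cells. By sample they were 27 of 801, 46 of 915 and 62 of 1579 cells in controls. In mutants they were 103 of 1652, 75 of 1377, 112 of 1488 and 65 of 1373 cells. These shares overlapped between genotypes and were not tested, nor was their part in the level over all cells.

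Cxcl16, the transmembrane ligand of Cxcr6, had the smallest share of its UMIs in its 10 highest cells, 2.66%, among the 33 members with over 20 UMIs. It had a UMI in 26.2% of cells, fewer than Ccl27a (48.8%). It was at 49.2, 37.4 and 41.3 CPM over all cells in controls and at 38.6, 42.6, 39.6 and 32.4 CPM in mutants. Microfold cells were highest, at 236, 194 and 179 CPM in controls and 187, 217 and 182 CPM in the mutants used. The genotypes overlapped (-0.08 ± 0.21), in the same cells in which Ccl25 fell. Cx3cl1, the other transmembrane chemokine, was at 33.0 ± 11.0 CPM in Immature and 32.1 ± 13.2 CPM in Secretory control cells (SD, n = 3), and at 4.90 to 7.49 CPM over all cells.

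Ccl27a, a ligand of Ccr10 made by keratinocytes of the skin, was at 122, 124 and 186 CPM over all cells in controls and at 129, 127, 161 and 164 CPM in mutants. The genotypes overlapped. Aire-adjacent cells were highest, at 536, 541 and 556 CPM in controls and 578, 543, 865 and 486 CPM in mutants, while Keratinocyte cells were at 267, 167 and 274 CPM and 438, 354, 276 and 324 CPM. The last comparison had no overlap but did not pass (0.53 ± 0.20, edgeR adjusted p = 0.606). Near-identical rows of Ccl27a on scaffolds had 11 and 3 UMIs and Ccl27b had 2, so the split among copies is uncertain.

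Immature cells carried a further group. Ccl11 (eotaxin, a ligand of Ccr3) was at 694, 607 and 757 CPM in control Immature cells and at 600.0, 526, 508 and 497 CPM in mutant ones. Every control was above every mutant, but the log2 fold change of -0.40 ± 0.15 did not pass (edgeR adjusted p = 0.999). How many of all genes were separated in this class was not counted. Over all cells it was at 24.7, 22.1 and 18.5 CPM in controls and 22.4, 14.8, 13.9 and 27.1 CPM in mutants, with overlap. Cxcl14, an epithelial chemokine, was at 181, 195 and 165 CPM in control and 208, 167, 216 and 143 CPM in mutant Immature cells, with no difference found (-0.00 ± 0.19). Cxcl12, the ligand of Cxcr4, was low, at 35.8 ± 8.96 CPM in control Immature cells.

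Ccl8, a monocyte-attracting neighbour of Ccl11, showed how far single cells can set a class level. It was at 13.4, 2.82 and 762 CPM in control Immature cells and at 9.73, 0, 23.8 and 3.49 CPM in mutants, so that its highest mean there rested on control 3. In Aire-expressing cells it was at 2.02, 22.9 and 39.6 CPM in controls and 1.11, 315, 22.9 and 279 CPM in mutants. A single Aire-expressing cell of mutant 4 held 780 of its 4226 UMIs. Over all cells Ccl8 was at 30, 15.0 and 33.7 CPM in controls and 15.2, 35.2, 18.9 and 66.5 CPM in mutants.

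**Figure D5:**
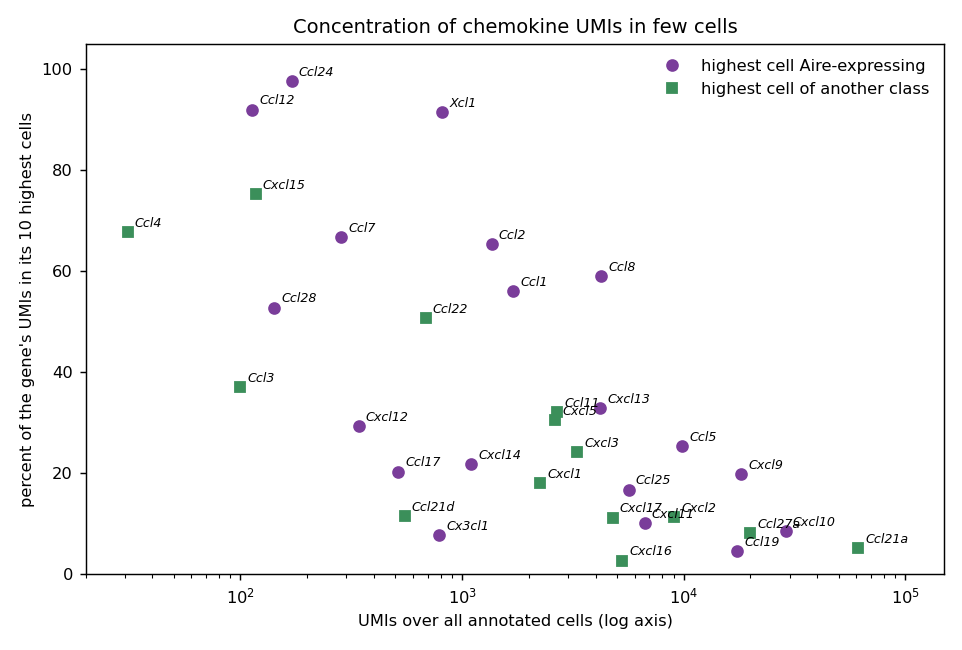
Percent of a gene's UMIs held by its 10 highest cells against its UMIs over all annotated cells (log axis), for the 33 members with over 20 UMIs. Purple circles are genes whose highest cell was Aire-expressing; Xcl1, Ccl24 and Ccl12 had over 90% of their UMIs in 10 cells, whereas Cxcl16, Ccl19 and Ccl21a had 2.66% to 5.13%.

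Members fell along a range from genes found at modest counts in many cells to genes found at high counts in few. Cxcl16 had 2.66% of its UMIs in its 10 highest cells and Ccl21a 5.13%. Xcl1, the ligand of Xcr1 on cross-presenting dendritic cells, had 91.5% of its 814 UMIs in 10 cells, and all 11 cells with at least 10 UMIs were Aire-expressing. Of the 33 members with over 20 UMIs, 11 had at least 50% of them in 10 cells, and for 8 of these the highest cell was Aire-expressing, a class of 8.55% of all cells. For all 33 members the highest cell was Aire-expressing in 19. The same count was not made over all genes, so it is not read as particular to the family. Aire-expressing cells were also deeper than Tuft cells. Cells with and without Cxcl9 had medians of 18710.0 and 16476 UMIs in that class and of 13273 and 12146 in Tuft cells. The part of depth in these counts was not tested. Rare genes reach high shares in 10 cells more easily, but Ccl8, Ccl1 and Ccl2 did so with 4226, 1698 and 1358 UMIs.

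Levels of these genes varied among samples of a genotype. Xcl1 in Aire-expressing cells was at 2.02, 47.5 and 133 CPM in controls and at 10.00, 103, 0.440 and 6.92 CPM in mutants. Ccl1, a ligand of Ccr8, was at 4.15, 3.58 and 26.5 CPM over all cells in controls and at 8.04, 7.61, 15.7 and 12.4 CPM in mutants. Ccl2, which recruits monocytes through Ccr2, was at 1.68, 30.9 and 17.1 CPM and at 12.1, 2.95, 1.26 and 7.03 CPM. Groups overlapped in each case. In 82 pooled control Entero-hepato cells Ccl2 was at 332 CPM.

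Ccl7, next to Ccl2 and likewise monocyte-attracting, was at 1.78, 10.5 and 2.44 CPM over all cells in controls and at 1.15, 0.725, 0.727 and 0.879 CPM in mutants. It was singled out after its values were seen. The groups did not overlap (-2.46 ± 0.61, edgeR adjusted p = 0.300, DESeq2 0.0107), and without control 2 the log2 fold change was -1.28 ± 0.30. A single Aire-expressing cell of control 2 held 84 of its 285 UMIs, or 29.5%. Entero-hepato cells, of which there were 82 in controls and 3 in mutants, held 79 UMIs in controls and 0 in mutants, and without that class the log2 fold change was -1.92 ± 0.74 (adjusted p = 0.811).

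Ccl5, an inflammatory chemokine that attracts T cells and monocytes, was at 26.7, 82.1 and 118 CPM over all cells in controls and at 56.0, 49.7, 82.4 and 72.4 CPM in mutants. The mutants lay within the range of the controls. Aire-adjacent and Aire-expressing control cells had 341 ± 329.7 and 296 ± 62.2 CPM (SD, n = 3), with overlapping ranges. Pooled control Entero-hepato cells were at 523 CPM. Cxcl13, the B cell chemokine that binds Cxcr5, was at 27.7, 40.8 and 30.4 CPM over all cells in controls and 14.5, 20.6, 42.2 and 47.7 CPM in mutants, and 70.8% of its UMIs were in Aire-expressing cells.

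Ccl17 and Ccl22, the ligands of Ccr4, were low. Ccl22 was at 28.1 ± 14.6 and Ccl17 at 11.9 ± 6.97 CPM in control Aire-expressing cells. Of 71 such cells with Ccl22, 31.0% had Ccl17, against 7.70% of the others at nearly the same median depth. The remaining members with over 20 UMIs (Ccl24, Ccl28, Cxcl15, Ccl12, Ccl3 and Ccl4) had between 31 and 170 UMIs. The other rows with UMIs, all copies or the pseudogene Ccl19-ps1, had at most 13, and Ccl26, Ccl19-ps3, Ccl21c, a Ccl21b row and a second Ccl19 row had 0.

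The receptors of these ligands were mostly low in the same cells. Of the 30 receptors and partners listed, 26 were tested over all cells and 0 passed in edgeR (median log2 fold change -0.04, all genes 0.00; smallest adjusted p = 0.294). Microfold cells were highest for Ccr2, the receptor of Ccl2, at 236 ± 91.4 CPM and for Ccr1, a receptor of several inflammatory ligands, at 142 ± 60.8 CPM in controls. Tuft cells, lowest in the summed chemokine CPM, were highest for Ackr4, the decoy receptor that clears Ccl19, Ccl21 and Ccl25, at 76.0 ± 7.35 CPM against 6.55 CPM in the next class. Cxcr3 and Ccr8 had 0 UMIs.

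Of the NF-kappaB list of receptors and factors of mTEC, 17 of 17 genes were tested over all cells and 0 passed. Of these, 16 had a log2 fold change below 0, with a median of -0.14 where that of all genes was 0.00, and the smallest adjusted p was 0.367. The interferon list had 27 of 27 tested and 0 passing, with a median of -0.05. In Secretory cells 25 of the 27 were tested, 22 were below 0 (median -0.32, all genes -0.01) and 1 passed, Cxcl9 itself. Cxcl9 and Cxcl10, both counted there, belong to the list and to the family described here. The list went the other way in Microfold cells, with 3 of 17 below 0 (median 0.44, all genes 0.01). It did so too in Neuroendocrine cells, with 7 of 24 below 0 (median 0.17, all genes 0.00). In the remaining classes the median was between -0.19 and 0.11.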

How the data were processed

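The deposited matrix gives whole-number UMI counts per gene and barcode, made by the authors. Cell Ranger 6.1.0, Seurat 4.0.2 and mm10 are listed, without their roles, in the submitters' processing notes; per the file headers Cell Ranger was 7.0.0. The cell table deposited by the authors gave each cell its sample and class; the other barcodes were left out of all comparisons. Another sample's hash tag ranked first in 45 annotated cells, and doublets were not called again. Each sample's counts were added up, over all its cells or over a class with at least 10 cells in it, with at least 3 samples per genotype. After filterByExpr, edgeR 4.0.16 gave the quasi-likelihood tests (R 4.3.3; TMM; Benjamini-Hochberg over all genes tested, 0.05); fold changes are mutant over control. DESeq2 1.42.0 was an alternative. The edgeR script was tested on simulated data with known changes. Shares of cells, and class differences on log2(CPM + 1), used exact permutation tests (scipy 1.17.1).

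Values are given for every sample for members called, at a mean of at least 10 CPM over all cells, or at 100 CPM in the controls of a class. The members and lists were chosen with earlier results of these data known. Class markers came from fixed lists. No batch other than the single run is named in the labels. The limit given for a count of 0 covers counting error only. The values of 1 gene of the receptor list are not reported here.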

Additional observations from a re-analysis of the deposited data

Results flagged for a closer look

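Ccl19 in Aire-expressing cells stood apart in mutant 3, at 678 CPM where the other mutants were at 457 to 480.3 CPM, a gap of 0.895 of the range, above Dixon's critical value for 4 samples. A total of 35 sets of 4 mutant values were examined in this way, and chance flags about 1 in 20.

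Ccl25 in Microfold cells, set against all other cells of the same sample, was higher in every control and lower in every mutant used. The genotypes differed by -2.19 on the log2 scale, and the exact permutation test could not go below 0.100 with 3 against 3 samples.

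Barcodes without an annotation, which entered no comparison, held chemokine UMIs at 1447 CPM, close to the 1610.1 CPM of the annotated cells. There were 8904 of them with a median of 5452 UMIs, and 3025 had a second hash tag of at least 150 UMIs and 20% of tag UMIs. They have no class and no genotype here. Ccl21a was at 364 CPM in them and at 457 CPM in annotated cells, and Cxcl10 at 198 and 216 CPM.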

How the results depend on the processing

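Over all cells 0 members passed under every edgeR setting tried: DESeq2's size factors, no filter on low counts, leaving out each sample (0 to 0), the replicate block, and without Entero-hepato cells, Tuft cells or cells of doubtful hash tags. The DESeq2 Wald test called 1. Within classes 2 of 151 pairs were called in the main test and 4 in DESeq2. There were 39 without the filter, where every gene with a UMI was tested. With at least 20 cells per sample there was 1, and too few Microfold samples were left for a fit. When each sample was left out there were 0 to 4. The shares of all genes called are not given for these other edgeR settings, so their counts are not read as a result about the members. Without control 3 or mutant 3 no pair was called. Of 17 members with a class at 100 CPM, 10 kept their highest class by the share of thinned cells with a UMI and 4 by the median over thinned cells, which was above 0 in any class for only 6; 511 cells under 5000 UMIs were left out of both. Whether replicate numbers pair the samples was not settled, and the samples were treated as unpaired. Same-numbered samples correlated at 0.23, 0.08 and 0.05 in their deviations. Not every sample correlated best with its own number: control 3 did so with mutant 4 (0.41), which has no control of its number. Correlations over this few samples cannot exclude a pairing. With the replicate block 0 members over all cells and 2 pairs within classes were called. The share of Ccl21a among chemokine UMIs, 30% on average over samples, ranged from 28.6% to 31.2% when each sample was left out. Differences from the other cells kept their sign with log2(CPM + 10). Of 41 fold changes followed, no called one changed sign. In 34 the outcome was the same in every setting, which for all of these was not to pass. Both pairs called in the main test lost their call in some settings. These were 5 of 12 for Ccl25 in Microfold cells and 3 of 13 for Cxcl9 in Secretory cells.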
